A study of Homo sapiens with 2 samples.

Results

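The citrate cycle enzymes described here are 9 genes: CS, ACO1, IDH1, IDH2, IDH3A, OGDH, FH, MDH1 and MDH2. They were taken by symbol from a deposited table of 25343 gene rows, and all 9 were found, each averaging at least 1 CPM over both libraries (CPM, the reads of a gene per 1000000 of its library, after the authors' TMM scaling). Expression was measured by short single-read RNA-seq in human C4-2B cells, a castration-resistant subline of the LNCaP prostate cancer lineage. The C4-2B ENZR library (n = 1) came from enzalutamide-resistant cells kept in RPMI medium with 10% fetal bovine serum and 20 µM enzalutamide, an antiandrogen. The C4-2B Con library (n = 1) came from enzalutamide-sensitive cells kept in parallel in the same medium with DMSO. The suffix shC in each title has no explanation in the labels, and whether the cells carried a control hairpin is unknown. How many clones the resistant line holds is not given in the sources used here.

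In the citrate cycle, citrate synthase joins acetyl-CoA to oxaloacetate, and the citrate is then oxidised stepwise back to oxaloacetate, which feeds electrons to the respiratory chain. Several steps also have an enzyme in the cytosol, which handles citrate, isocitrate or malate outside the mitochondria for lipid synthesis, NADPH supply and the malate-aspartate shuttle. Normal prostate epithelium is known for accumulating and secreting citrate and malignant prostate cells are known for oxidising more of it.

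The libraries held 23479051 reads in genes for ENZR and 21024484 for Con. With no replicate, no test of the conditions was possible, no p-value is given, and the spread between cultures is unknown. Intervals below, called counting intervals, are exact 95% Clopper-Pearson intervals of the plain CPM ratio of ENZR over Con and cover counting error only. The log2 ratio is that of ENZR over Con after adding 1 CPM, which understates the change of low genes, and a gene is called past 1.5-fold or 2-fold by this ratio. All 8 markers of prostate luminal epithelium had a mean of 1 CPM or more, from 3.72 to 994 CPM in ENZR and from 72.2 to 1428 CPM in Con. KLK3 was the lowest of them in ENZR, at 3.72 CPM, and the highest in Con, at 1428 CPM. Summed CPM was 0.0404 in ENZR and 0.392 in Con for 3 basal markers, with KRT5 and TP63 at 0 in both. It was 0.202 in ENZR and 0.490 in Con for 4 blood cell markers (PTPRC, CD3E, CD14 and the red cell gene HBB), with CD3E and HBB at 0 in both. The 6 stromal markers summed to 48.5 CPM in ENZR, 44.4 of them COL1A1, and to 23.1 CPM in Con, 18.1 of them COL1A1, with COL1A2 at 0 in both. The 3 endothelial markers summed to 4.57 CPM in ENZR and 10.5 CPM in Con, with CDH5 at 0 in both.

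All 9 enzymes differed little between the libraries. None passed 1.5-fold in either direction, whereas 26.5% of the 13803 genes averaging at least 1 CPM did, and none passed 2-fold, against 11.3% of those genes. All 9 lie at a mean of 50 CPM or more, and among the 4917 genes of that range 18% passed 1.5-fold and 4.88% passed 2-fold. The log2 ratios ran from -0.31 for OGDH to 0.35 for ACO1, with a median of 0.0035 and a mean on the other side of 0 at -0.012, beside a median of -0.01 over all genes and -0.08 over those at 50 CPM or more. An absolute log2 ratio larger than that of ACO1 was held by 46.7% of all genes and by 38.3% of those at 50 CPM or more. Log2 ratios below 0 were found for 4 of the 9 enzymes, for 50.5% of all genes and for 58.5% of those at 50 CPM or more. The counting interval lay above 1 for ACO1, IDH2 and IDH3A, below 1 for CS, OGDH, FH and MDH2, and held 1 for IDH1 and MDH1. These intervals hold for the TMM scaling only. With TMM undone the log2 ratios of IDH1 and MDH1 were 0.14 and 0.12, against 0.02 and 0.0035 with it. An interval that excludes 1 was common, at 71.2% of all genes and 82.4% of those at 50 CPM or more.

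Summed over the 9 genes, the level was 2314 CPM in ENZR and 2458 CPM in Con, a ratio of 0.941 (counting interval 0.930 to 0.953). As plain shares of the reads in genes, before any scaling between libraries, this was 0.244% of the ENZR library and 0.239% of the Con library. The direction of the summed difference depends on the scaling. The ratio was 0.977 with upper quartile scaling and 0.942 with median-of-ratios size factors, but 1.02 when TMM was undone and 1.02 when library totals omitted the 10 most abundant genes. The enzymes of the mitochondria (CS, IDH2, IDH3A, OGDH, FH and MDH2) summed to 1812 CPM in ENZR and 1977 CPM in Con, and those of the cytosol (ACO1, IDH1 and MDH1) to 502 CPM in ENZR and 480 CPM in Con. FH encodes protein for both compartments and is counted here with the mitochondria.

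**Figure D1:**
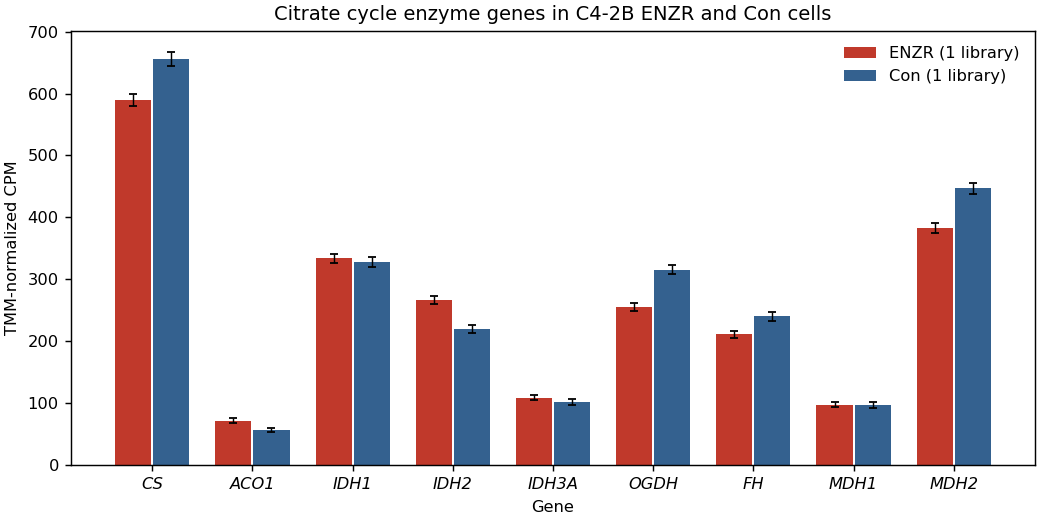
TMM-normalized CPM (vertical axis) of the 9 citrate cycle enzyme genes (horizontal axis) in ENZR (left bar of each pair, 1 library) and Con (right bar, 1 library), with error bars for the exact 95% Poisson counting interval. CS is the tallest pair, at 589 CPM in ENZR and 656 CPM in Con, and ACO1 the shortest, at 71.3 CPM in ENZR and 55.8 CPM in Con.

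CS, citrate synthase, which commits acetyl-CoA to the cycle and is widely used as a marker of mitochondrial content, was at 589 CPM in ENZR and 656 CPM in Con. The ratio was 0.898 (0.877 to 0.919). It took the most reads of the 9 genes in both libraries, 25.5% of their sum in ENZR and 26.7% in Con.

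ACO1, the cytosolic aconitase, also serves as an iron-regulatory RNA-binding protein when it loses its iron-sulphur cluster. Its level was 71.3 CPM in ENZR and 55.8 CPM in Con, a ratio of 1.28 (1.19 to 1.38), the highest of the 9.

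The isocitrate dehydrogenases turn isocitrate into 2-oxoglutarate, IDH1 (cytosol and peroxisomes) and IDH2 (mitochondria) with NADP and the IDH3 complex (mitochondria) with NAD. IDH2 was at 266 CPM in ENZR and 219 CPM in Con, a ratio of 1.22 (1.17 to 1.26). IDH1 was nearly level, at 333 CPM in ENZR and 328 CPM in Con, a ratio of 1.02 (0.985 to 1.05). IDH1 thus took 55.6% of the IDH1 and IDH2 reads in ENZR (54.8% to 56.4%) and 60.0% in Con (59.1% to 60.9%). A share within a library does not depend on the scaling between libraries, and the intervals of the shares cover counting error only.

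IDH3A encodes the catalytic subunit of the NAD-dependent enzyme and was at 108 CPM in ENZR and 101 CPM in Con, a ratio of 1.07 (1.01 to 1.13). Its partner subunits lay below 1, IDH3B at 57.5 CPM in ENZR and 63.3 CPM in Con and IDH3G at 51.1 CPM in ENZR and 63.0 CPM in Con. IDH3A therefore made up 49.9% of the reads of the 3 subunit genes in ENZR (48.6% to 51.3%) and 44.5% in Con (43.0% to 45.9%), a share chosen after the values were seen.

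OGDH, the first and rate-setting component of the 2-oxoglutarate dehydrogenase complex, was at 255 CPM in ENZR and 315 CPM in Con. Its ratio of 0.808 (0.780 to 0.837) was the lowest of the 9. The other components of the complex were lower too. DLST, the succinyltransferase core, was at 119 CPM in ENZR and 152 CPM in Con (ratio 0.781). DLD, the dehydrogenase that this complex shares with pyruvate dehydrogenase, was at 231 CPM in ENZR and 307 CPM in Con (ratio 0.751). OGDH kept a like share of the OGDH and DLST reads, 68.1% in ENZR (67.2% to 69.1%) and 67.4% in Con (66.4% to 68.3%), a share chosen after the values were seen.

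FH, fumarase, which hydrates fumarate to malate and is a tumour suppressor in hereditary kidney cancer, was at 211 CPM in ENZR and 240 CPM in Con, a ratio of 0.881 (0.847 to 0.916). MDH2, the mitochondrial malate dehydrogenase that closes the cycle, was at 383 CPM in ENZR and 447 CPM in Con, a ratio of 0.857 (0.833 to 0.882). MDH1, its cytosolic counterpart in the malate-aspartate shuttle, was at 96.8 CPM in ENZR and 96.6 CPM in Con, a ratio of 1.00 (0.944 to 1.06). MDH1 held 20.2% of the malate dehydrogenase reads in ENZR (19.5% to 20.9%) and 17.8% in Con (17.1% to 18.5%).

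Levels of different genes can be compared only per length, here as CPM per kilobase of the coding length of one principal GENCODE 29 transcript per gene. By this measure CS led in both libraries, at 421 in ENZR and 469 in Con, followed by MDH2 (378 in ENZR, 441 in Con), IDH1 (268 in ENZR, 264 in Con), IDH2 (196 in ENZR, 161 in Con) and FH (138 in ENZR, 157 in Con). Below them lay IDH3A (98.6 in ENZR, 92.1 in Con), MDH1 (96.7 in ENZR, 96.4 in Con) and OGDH (83.0 in ENZR, 103 in Con). They lay close together and took a different order in each library, so coding length does not separate these 3. ACO1 was last, at 26.7 in ENZR and 20.9 in Con. Per kilobase of the whole transcript CS, MDH2 and IDH1 again came first and ACO1 last, but FH stood above IDH2, at 117 in ENZR and 133 in Con beside 98.9 in ENZR and 81.2 in Con for IDH2. By that measure IDH3A (26.2 in ENZR, 24.5 in Con) lay below MDH1 (58.7 in ENZR, 58.6 in Con) and OGDH (60.9 in ENZR, 75.4 in Con).

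Some reads may belong to other genes. The share of 50-base stretches of the principal transcript, the read length, that also occur in a transcript of another GENCODE gene on either strand was 0% for OGDH and MDH2, and 0.553% and 0.557% for ACO1 and IDH1. It was 3.36% for IDH2, 5.89% for FH and 8.99% for MDH1, mostly through the overlapping gene WDPCP in the last case (8.87%). CS had 21.6%, of which a processed pseudogene accounts for 16.4%. IDH3A had 62.8%, all shared with the overlapping gene ACSBG1, which was itself listed at 0.809 CPM in ENZR and 1.37 CPM in Con. Of the partner subunits of IDH3A, IDH3B had 0% and IDH3G 16.1%. The IDH3G stretches were all shared with SSR4, at 98.3 CPM in ENZR and 102 CPM in Con. Whether the authors' counting used strand is not given in the sources used here, so these values carry that uncertainty. The antisense gene IDH1-AS1 stood at 2.02 CPM in ENZR and 2.99 CPM in Con.

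Larger differences were found among the other enzymes of the cycle. Of the 11 genes IDH3B, IDH3G, DLST, DLD, SUCLG1, SUCLG2, SUCLA2, SDHA, SDHB, SDHC and SDHD, 10 lay below 0 in log2 ratio and SDHC above, with a median of -0.29. Past 1.5-fold lower were 2 of the 11, SDHA and SUCLA2, and none was past it higher, beside 12.9% of all genes lower and 13.6% higher, or 13% lower and 5.04% higher at 50 CPM or more. Over all 20 genes the median was -0.17, with 14 below 0. When TMM was undone the median of the 11 was -0.18, 9 lay below 0 and SUCLA2 no longer passed 1.5-fold, at a log2 ratio of -0.50.

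SDHA, the flavoprotein that binds succinate in succinate dehydrogenase (complex II), had the largest difference of the 20 genes, with 112 CPM in ENZR and 223 CPM in Con. It was 1.99-fold lower (1.89 to 2.08). SDHB, the iron-sulphur subunit, was nearly level at 94.1 CPM in ENZR and 95.6 CPM in Con. The membrane anchors parted, SDHC at 168 CPM in ENZR and 146 CPM in Con and SDHD at 124 CPM in ENZR and 147 CPM in Con. SDHA has close pseudogenes, and 22.3% of its 50-base stretches occur in other genes. Summed with SDHAP1, SDHAP2 and SDHAP3, its level was 147 CPM in ENZR and 260 CPM in Con, 1.76-fold lower. The share of such stretches was larger for SDHD, at 27.7%, and was 8.42% for SDHC and 0% for SDHB.

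Succinyl-CoA synthetase turns succinyl-CoA into succinate while forming ATP or GTP, and pairs a shared alpha subunit, SUCLG1, with either of 2 beta subunits. SUCLA2, the ADP-forming beta subunit, was at 41.7 CPM in ENZR and 64.6 CPM in Con, 1.55-fold lower (1.43 to 1.68). SUCLG2, the GDP-forming one, was at 107 CPM in ENZR and 132 CPM in Con, and SUCLG1 at 86.3 CPM in ENZR and 94.8 CPM in Con.

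**Figure D2:**
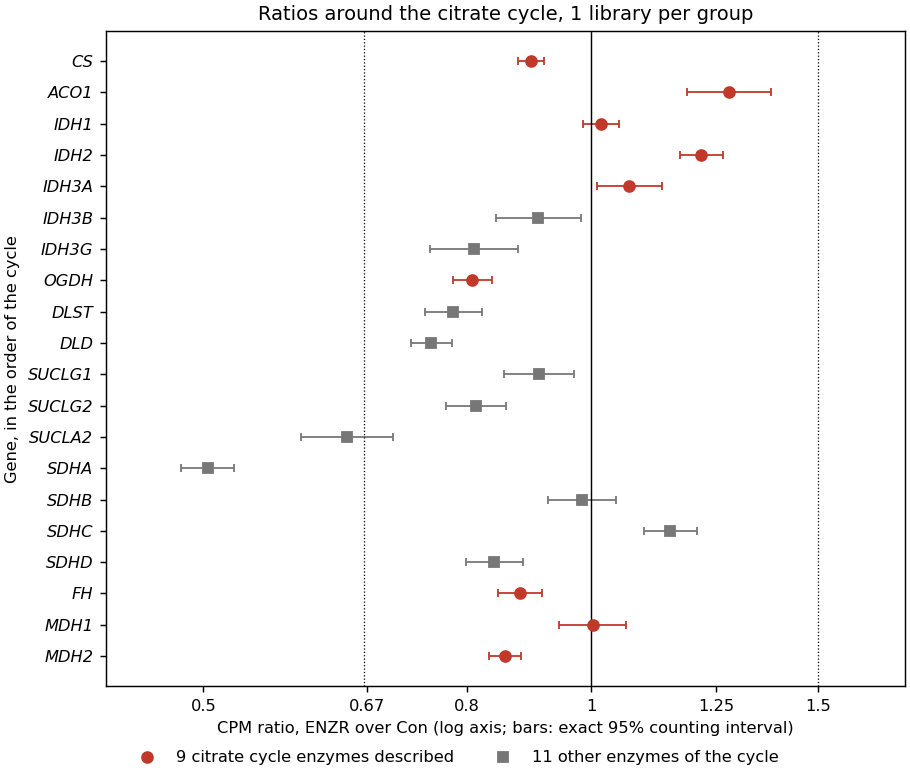
CPM ratio of ENZR over Con (horizontal log axis) for 20 citrate cycle genes in the order of the cycle, 1 library per group, with bars for the exact 95% counting interval. The 9 enzymes described (circles) lie between 0.808 for OGDH and 1.28 for ACO1, inside the dotted lines at 1.5-fold, while SDHA (0.504) and SUCLA2 (0.646) among the 11 others (squares) lie beyond the lower line.

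Each enzyme was also set beside its neighbours on the chromosome. The 20 nearest measured genes, 10 on either side in RefSeq order, had a median log2 ratio between -0.05 and 0.31 for each of the 9 enzymes. FH on chromosome 1 and OGDH on chromosome 7 lay 0.41 and 0.40 below the median of their neighbours. IDH2 and IDH3A both lie on chromosome 15, whose genes had a median of 0.15, and stood 0.22 above and 0.21 below the median of their neighbours. ACO1 stood 0.31 above its neighbours on chromosome 9. SUCLA2 lies on chromosome 13, whose 226 measured genes had a median of -0.52, and 18 of its 20 neighbours were below 0. DLD on chromosome 7 had a log2 ratio of -0.41 beside a median of -0.36 for its 20 neighbours, 14 of them below 0, while the chromosome median was 0.05. SDHA lies near an end of chromosome 5, where the chromosome median was -0.32 and the median of its 12 neighbours -0.17. The part of the chromosomal surroundings in these results was not tested.

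Start regions of some of the 9 genes are shown: those of MDH2 and MDH1, which catalyse the same reaction in different compartments, of ACO1, which had the highest ratio, and of CS, which had the highest level per length. RefSeq (GRCh38.p14) entries were matched by symbol for 8 of the 9 genes, in 10 entries, OGDH not being among them. The 3 motifs found by a search on both strands are in capitals: CCGGAAGT, the core bound by GABP and other ETS factors, the CCAAT box, and GGGCGG, the core bound by SP1 (reverse complements ACTTCCGG, ATTGG and CCGCCC). The 250 bases before the start are printed 5′ to 3′ on the gene's strand.
MDH2, chr7:76047856-76048105, plus strand: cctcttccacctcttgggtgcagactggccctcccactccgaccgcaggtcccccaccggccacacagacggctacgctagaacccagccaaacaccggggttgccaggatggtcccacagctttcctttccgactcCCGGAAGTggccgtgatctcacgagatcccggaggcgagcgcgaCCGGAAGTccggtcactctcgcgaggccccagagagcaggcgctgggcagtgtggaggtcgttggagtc
MDH1, chr2:63588713-63588962, plus strand: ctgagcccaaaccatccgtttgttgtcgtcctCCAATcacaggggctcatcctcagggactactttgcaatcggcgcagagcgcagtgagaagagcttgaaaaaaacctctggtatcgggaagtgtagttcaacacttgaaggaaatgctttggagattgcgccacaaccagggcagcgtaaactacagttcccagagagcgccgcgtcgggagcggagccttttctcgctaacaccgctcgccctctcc
ACO1, chr9:32384393-32384642, plus strand: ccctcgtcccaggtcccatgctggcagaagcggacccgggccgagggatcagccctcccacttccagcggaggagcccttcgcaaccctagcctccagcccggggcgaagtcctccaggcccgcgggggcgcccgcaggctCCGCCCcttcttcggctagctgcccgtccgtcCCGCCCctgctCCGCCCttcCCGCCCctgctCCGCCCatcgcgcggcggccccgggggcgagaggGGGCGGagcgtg
CS, chr12:56300331-56300580, minus strand: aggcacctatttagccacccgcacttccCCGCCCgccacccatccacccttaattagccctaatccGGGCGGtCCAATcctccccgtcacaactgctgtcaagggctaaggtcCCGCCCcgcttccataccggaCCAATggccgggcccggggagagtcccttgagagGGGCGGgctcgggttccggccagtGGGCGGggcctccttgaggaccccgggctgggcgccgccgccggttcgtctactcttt

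Among these 8 genes CCGGAAGT was found upstream of MDH2 alone, which holds 2 copies, and 3.42% of 35116 entries of the same length hold it. The printed window of MDH1 has 1 CCAAT box, and the other MDH1 entry holds none of the motifs in capitals. GGGCGG was found upstream of ACO1, CS, FH, IDH1 and IDH3A and in 42.6% of all entries, and CCAAT upstream of CS, FH, IDH1 and MDH1 and in 32.0% of all entries. Searches for GCGCATGC (a core of NRF1 sites, in 2.63% of entries), TCAAGGTCA (bound by the receptor ERR alpha, in 0.319%) and CACGTG (in 6.34%) matched none of the 10 entries. Among the other enzymes of the cycle, CCGGAAGT was found upstream of DLST, IDH3B and SDHD, and GCGCATGC upstream of DLD, SDHB and SDHD. None of the motifs overlap one another in the printed windows. A match says only that these letters are present.

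Among regulators of mitochondrial genes, 10 of 11 listed genes were measured, and the median was 0.01, with the mean below 0 at -0.06. None passed 1.5-fold, beside 26.5% of all genes. GABPA, the DNA-binding subunit of GABP, was at 39.1 CPM in ENZR and 54.0 CPM in Con, a ratio of 0.725 (0.664 to 0.791). NRF1, nuclear respiratory factor 1, was at 20.4 CPM in ENZR and 20.8 CPM in Con, and ESRRA, which encodes ERR alpha, at 104 CPM in ENZR and 105 CPM in Con. These regulators were named after their values were seen, for the motifs above.

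The genes that feed pyruvate into the cycle had a median log2 ratio of -0.04 over 12 measured members. Past 1.5-fold were 1 higher and 2 lower, beside 13.6% of all genes higher and 12.9% lower. MPC2, a subunit of the mitochondrial pyruvate carrier, was at 124 CPM in ENZR and 382 CPM in Con, 3.09-fold lower (2.96 to 3.22). Its partner MPC1 was at 18.6 CPM in ENZR and 14.6 CPM in Con. PDK1, a kinase that inhibits pyruvate dehydrogenase, was at 39.5 CPM in ENZR and 60.3 CPM in Con, and PDP1, a phosphatase that reactivates it, at 26.1 CPM in ENZR and 14.6 CPM in Con, 1.79-fold higher (1.56 to 2.06). Their homologues, named after their values were seen, went the other way without passing 1.5-fold. PDK3 was at 117 CPM in ENZR and 97.7 CPM in Con, and PDK2 at 31.9 CPM in ENZR and 28.0 CPM in Con. PDP2 was at 60.2 CPM in ENZR and 81.7 CPM in Con.

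Genes of anaplerosis, the refilling of the cycle, and of glutamate metabolism had a median of -0.50 over 11 measured members. This median was -0.32 with no filter on low values. Past 1.5-fold were 5 lower and 1 higher, beside 12.9% of all genes lower and 13.6% higher. ME1, the cytosolic malic enzyme that yields NADPH, was at 57.5 CPM in ENZR and 140 CPM in Con, 2.43-fold lower (2.28 to 2.59). ME2, the mitochondrial malic enzyme, was at 65.2 CPM in ENZR and 68.3 CPM in Con. ME1 thus held 46.9% of the ME1 and ME2 reads in ENZR (45.1% to 48.6%) and 67.1% in Con (65.7% to 68.6%). The aspartate aminotransferases, which work with MDH1 and MDH2 in the malate-aspartate shuttle, were both lower, GOT1 at 90.0 CPM in ENZR and 151 CPM in Con and GOT2 at 205 CPM in ENZR and 368 CPM in Con. GOT1 was 1.68-fold and GOT2 1.80-fold lower, so their read shares stayed close, with GOT1 at 30.6% in ENZR (29.5% to 31.6%) and 29.1% in Con (28.2% to 30.0%). GPT, alanine aminotransferase, was at 3.60 CPM in ENZR and 12.2 CPM in Con, and PCK2, mitochondrial phosphoenolpyruvate carboxykinase, at 73.9 CPM in ENZR and 134 CPM in Con. The higher gene, GLS2, a glutaminase named after its values were seen, was at 28.6 CPM in ENZR and 18.6 CPM in Con.

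**Figure D3:**
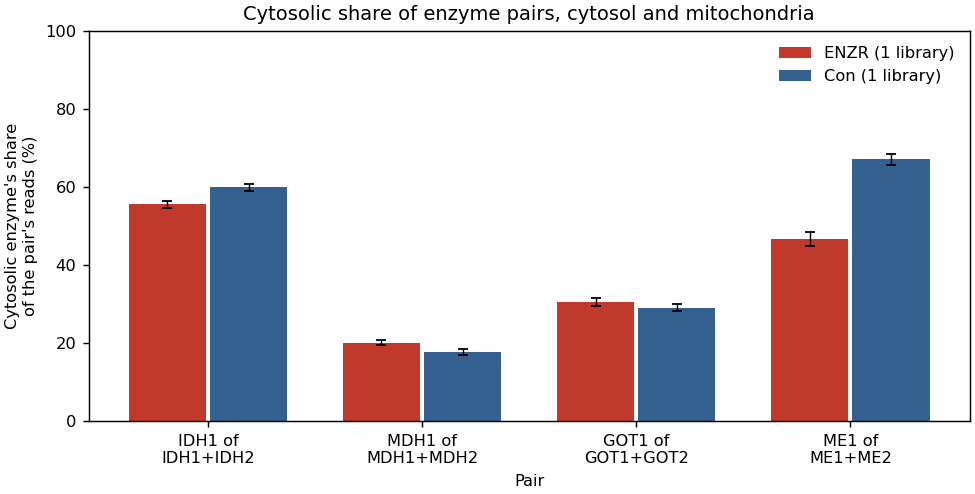
Share of a pair's reads taken by the cytosolic enzyme (vertical axis, percent) for 4 pairs of a cytosolic and a mitochondrial enzyme, in ENZR (left bars, 1 library) and Con (right bars, 1 library), with exact 95% binomial intervals. The share of ME1 was lower in ENZR (46.9% against 67.1% in Con), as was that of IDH1 by a smaller margin (55.6% in ENZR against 60.0% in Con), and GOT1 stayed close (30.6% in ENZR, 29.1% in Con).

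Citrate leaves mitochondria for lipid synthesis and, in the prostate, for secretion. Genes of citrate use and acetyl-CoA metabolism had a median of -0.30 over 8 members. Past 1.5-fold lower were 2, ACACA and ACAT1, beside 12.9% of all genes. ACACA, acetyl-CoA carboxylase, was at 371 CPM in ENZR and 591 CPM in Con. ACAT1, a mitochondrial thiolase, was at 103 CPM in ENZR and 171 CPM in Con. Of 8 citrate and zinc transport genes 5 were measured, 3 of them past 1.5-fold lower, beside 12.9% of all genes. Their median was -0.85. This median was -0.16 with no filter on low values, -0.51 at a mean of 5 CPM or more and -0.55 with a pseudocount of 5 CPM. ANKH, a membrane protein that exports citrate and ATP, was at 33.2 CPM in ENZR and 100 CPM in Con, 3.02-fold lower (2.78 to 3.27). SLC39A3, a zinc importer, was at 33.9 CPM in ENZR and 62.1 CPM in Con, and SLC13A3, a dicarboxylate transporter, at 2.26 CPM in ENZR and 5.63 CPM in Con.

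The mitochondrial carriers of organic acids had a median of 0.20 over 6 measured members and none past 1.5-fold, beside 26.5% of all genes. Genes of side reactions of 2-oxoglutarate, malate and lactate, with homologues of the 9 enzymes, had a median of 0.20 over 8 measured members. Past 1.5-fold higher were 2 of them, beside 13.6% of all genes. OGDHL, a homologue of OGDH, was at 15.2 CPM in ENZR and 5.44 CPM in Con, 2.80-fold higher (2.26 to 3.50), the opposite direction to OGDH. LDHB, the lactate dehydrogenase subunit of oxidative tissues, was at 984 CPM in ENZR and 592 CPM in Con, 1.66-fold higher. The NADPH supply list had a median of -0.18 over 8 measured members, with 2 past 1.5-fold lower, beside 12.9% of all genes. These 2 were the mitochondrial folate enzymes ALDH1L2 and MTHFD2, at ratios of 0.593 and 0.627.

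The respiratory chain genes, listed together with those of ATP synthase, had a median of -0.28 over 23 members, with 20 below 0 and 5 past 1.5-fold lower. Among all genes at 50 CPM or more, 58.5% were below 0 and 13% past 1.5-fold lower. ATP5D, an ATP synthase subunit, was 2.12-fold lower, and UQCRFS1 of complex III with NDUFS7 and NDUFV2 of complex I were 1.70-fold, 1.70-fold and 1.60-fold lower. The fifth gene, COX4I1 of complex IV, chosen once its values were known, was 1.51-fold lower. The glycolysis genes had a median of -0.02 over 15 members, with ENO2 10.5-fold and ALDOC 2.46-fold higher and GPI 1.72-fold and HK2 1.55-fold lower. Of all genes, 13.6% were past 1.5-fold higher and 12.9% lower. The difference between these medians and that of the 9 enzymes was not tested.

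**Figure D4:**
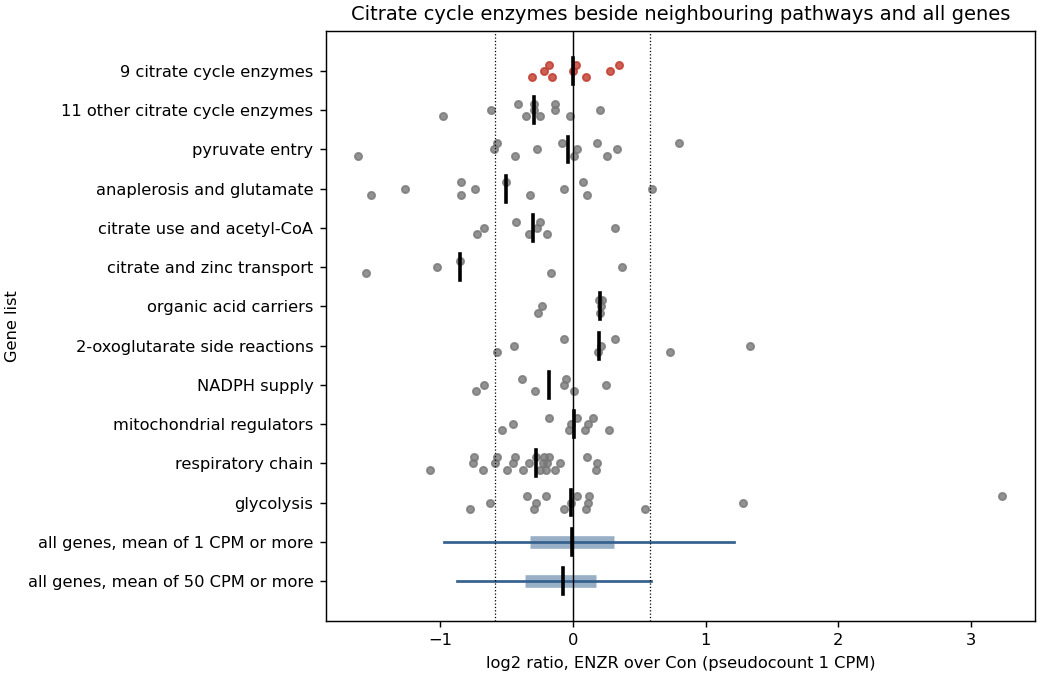
Log2 ratio of ENZR over Con (horizontal axis, pseudocount 1 CPM) for each measured gene of the 9 enzymes (top row) and of 11 related lists, with black bars for medians. The 2 lowest rows give all genes as a line from the 5th to the 95th percentile and a box from the 25th to the 75th, and the 9 enzymes lie within the dotted lines at 1.5-fold.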

How the data were processed

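RNA-seq was available for 1 C4-2B ENZR and 1 C4-2B Con library. The deposited table holds a signal per gene and library, described by the authors as TMM-normalized CPM. Bowtie2 (2.1.0), RSEM (1.2.15), edgeR and the build hg19 appear in the submitters' processing notes without the step each served. Every deposited value was a whole multiple of 1 step (100% within 0.01 reads), so whole reads, possibly rounded RSEM estimates, were recovered, 1 read being worth 0.0404 CPM in ENZR and 0.0490 CPM in Con. A count test on these reads has no residual degrees of freedom with 1 library per group, so none was run and no gene was called. Further columns of sample values numbered 0.

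Log2 ratios used a pseudocount of 1 CPM and, for all-gene counts, the 13803 genes averaging at least 1 CPM. Intervals are exact (Clopper-Pearson, SciPy 1.17.1), and their calculation was checked on simulated reads. Those reads were drawn with Poisson counting error only, so the check does not cover rounded estimates or reads shared between genes. Lengths and shared stretches came from GENCODE 29, and neighbours (12484 genes matched by symbol) and start regions from RefSeq GRCh38.p14, with no hg19 coordinates used. The 9 genes and all lists were chosen with earlier results of these data known. Named genes are the 9 members, the other measured cycle enzymes (11 reported), the pair partners, and from each other list up to 4 genes past 1.5-fold with the largest log2 ratios. Some listed genes are not reported here. Alternatives changed the pseudocount, the scaling, the filter and the summary of a list.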

Additional observations from a re-analysis of the deposited data

How the results depend on the processing

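No paired analysis was possible because each group has 1 library, and for the same reason no replicate could be left out. Each of the 9 enzymes kept its direction and none passed 1.5-fold under any of the 8 other settings of pseudocount, scaling and filter. The pseudocount and filter settings could not change a direction, so only the scalings bear on it. With TMM undone or the 10 most abundant genes left out, all 9 log2 ratios left the counting interval of the main setting. With upper quartile scaling 4 of them did. The log2 ratio of ACO1 ranged from 0.33 to 0.46 and that of OGDH from -0.31 to -0.19. The scaling moved all ratios: the median log2 ratio of all genes shifted by 0.11 when TMM was undone, by 0.11 with the 10 most abundant genes left out and by 0.05 with upper quartile scaling. In these settings the summed ratio of the 9 enzymes was 1.02, 1.02 and 0.977, against 0.941. The median of the organic acid carriers became 0.31, 0.31 and 0.25, against 0.20, and their mean was 0.06. The respiratory chain median became -0.16 in each of the first 2, against -0.28. Of all genes past 1.5-fold, 51.5% were higher, but 64.6% with TMM undone and 64.5% with the 10 genes left out. SUCLA2 stayed under 1.5-fold in all 3 settings and with a pseudocount of 5 CPM (-0.57), where SDHA stood at -0.96. All genes past 2-fold numbered 1564, but 818 with a pseudocount of 5 CPM and 1033 at a mean of 5 CPM or more. By the mean, glycolysis stood at 0.19. The median of the citrate and zinc transport genes ranged from -0.86 to -0.16, and that of anaplerosis and glutamate from -0.51 to -0.32, both nearest 0 with no filter on low values. With the mean counted among the settings, that of NADPH supply ranged from -0.29 to -0.06, of the 2-oxoglutarate side reactions from 0.15 to 0.30, and those of pyruvate entry (-0.16 to 0.08), the mitochondrial regulators (-0.06 to 0.12) and glycolysis (-0.02 to 0.19) lay on both sides of 0. The background at 50 CPM or more and the sum of SDHA with its pseudogenes were added after the data were seen, and the latter left the median of the 11 other enzymes at -0.29. Each of the 9 enzymes had between 1139 and 14567 reads in a library. The intervals cover counting error only, and the spread between cultures is unknown.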
